A study of Arabidopsis thaliana with 18 samples.

Results

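The WRKY family is a plant group of transcription factors named after the WRKY peptide in the DNA-binding domain that its members share. The 59 members described here are the WRKY genes given for Arabidopsis thaliana by locus identifier, and all 59 were among the 24532 genes of the deposited table. The rule that defines them is family membership and uses no measured level. A search of gene symbols and synonyms found 71 WRKY-named genes in the table, so 12 named WRKY genes are outside the set, the highest of them at a mean of 22.6 CPM (counts scaled to a common library total).

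RNA of Arabidopsis roots was sequenced in lines C4 and B2 and in wild type (WT), each at 150 mM NaCl and at 0 mM NaCl, and the study asked how roots of the isoprene-emitting lines and of WT differ in their response to salt. C4 and B2 are transgenic lines that carry the isoprene synthase coding sequence of Eucalyptus globulus, with its own transit peptide, behind the Arabidopsis promoter rbcS-1A and followed by the terminator of an octopine synthase gene. That promoter belongs to RBCS1A, a gene of photosynthetic tissue, and each line is a single transformant line. After one near-identical column was set aside, there were 3 libraries each of C4 at 150 mM, C4 at 0 mM, B2 at 150 mM, B2 at 0 mM and WT at 0 mM, and 2 of WT at 150 mM. Nothing in the labels says whether the libraries of a group are separate plants or cultures, so every p-value rests on a spread between libraries that may be technical. The protocols describe an empty vector line as the non-emitting control and other NaCl concentrations for growth measurements, but each sample here is labelled by WT, C4 or B2 and by 0 or 150 mM.

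WRKY proteins bind a short promoter element called the W-box, and many WRKY genes hold W-boxes in their own promoters, so that members regulate each other. The family is divided by domain number and zinc-finger type into group I, with a pair of WRKY domains, group II, with subgroups a to e, and group III. Members act in defence, salicylate and abscisic acid signalling, senescence and nutrient supply, and in roots in growth, phosphate uptake and responses to salt.

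Libraries held 54233853 to 91527683 counts, and the 59 members together took 0.197% to 0.247% of the counts of a library. Markers of root endodermis, root cap and stele were above 0 in all 17 libraries. The 6 photosynthetic shoot markers were also detected, with a summed level of 155.6 to 279.8 CPM at 150 mM and 69.7 to 197.2 CPM at 0 mM, and 5 of the 6 were above 0 in all libraries. In all, 2 libraries stood apart from their labels in genes that otherwise separate the genotypes. ANNAT3 was at 0.458 to 1.36 CPM in 5 of the 6 libraries labelled B2 and at 96.8 CPM in B2 0 mM replicate 3, which also had 0.0499 CPM of MRD1, against 32.8 to 44.0 CPM in the other libraries labelled C4 or B2. WT 150 mM replicate 2 had 33.4 CPM of MRD1, against 0.0965 to 2.06 CPM in the other libraries labelled WT. Counts of called members, and the values of WT and B2 that changed most, are given with and without these libraries.

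The promoters of 4 members whose levels changed are shown, because W-boxes are the element through which the family acts on itself. Each is the 300 bases before the annotated gene start on the gene's strand, from the RefSeq TAIR10.1 genome, with W-boxes (TTGACC or TTGACT, which read GGTCAA or AGTCAA from the other strand) in capitals. They lie at chr5:8154711-8155010 (minus strand) for WRKY30 (AT5G24110), chr2:16107935-16108234 (plus strand) for WRKY33 (AT2G38470), chr4:12393983-12394282 (minus strand) for WRKY53 (AT4G23810) and chr1:26058384-26058683 (minus strand) for WRKY57 (AT1G69310).
WRKY30: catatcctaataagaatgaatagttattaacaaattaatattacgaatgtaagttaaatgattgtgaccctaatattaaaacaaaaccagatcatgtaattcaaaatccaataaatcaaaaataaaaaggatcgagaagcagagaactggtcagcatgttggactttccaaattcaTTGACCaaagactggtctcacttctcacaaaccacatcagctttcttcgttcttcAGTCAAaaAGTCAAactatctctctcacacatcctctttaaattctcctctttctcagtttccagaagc
WRKY33: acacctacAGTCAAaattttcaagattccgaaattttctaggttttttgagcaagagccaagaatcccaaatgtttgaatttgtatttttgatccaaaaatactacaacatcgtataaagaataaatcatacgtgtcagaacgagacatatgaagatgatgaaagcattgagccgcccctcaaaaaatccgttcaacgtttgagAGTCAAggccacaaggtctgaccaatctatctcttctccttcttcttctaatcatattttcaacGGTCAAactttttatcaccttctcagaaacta
WRKY53: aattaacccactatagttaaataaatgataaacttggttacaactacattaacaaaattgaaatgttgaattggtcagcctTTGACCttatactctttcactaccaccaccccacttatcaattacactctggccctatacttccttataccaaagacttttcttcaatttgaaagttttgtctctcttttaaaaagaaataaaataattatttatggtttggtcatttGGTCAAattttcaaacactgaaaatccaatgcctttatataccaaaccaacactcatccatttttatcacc
WRKY57: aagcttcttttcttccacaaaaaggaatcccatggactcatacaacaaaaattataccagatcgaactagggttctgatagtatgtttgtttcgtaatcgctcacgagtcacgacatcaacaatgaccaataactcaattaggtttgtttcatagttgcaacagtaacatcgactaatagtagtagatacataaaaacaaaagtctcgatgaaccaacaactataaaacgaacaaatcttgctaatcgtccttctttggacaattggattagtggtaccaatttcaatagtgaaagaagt
WRKY30 and WRKY33 were the only members with 3 W-boxes in this window. WRKY53 had 2, 219 and 71 bases before the start, and WRKY57 had 0. Of the 59 members, 35 had 0, 15 had 1, 7 had 2 and 2 had 3, which put at least 1 W-box in 24 of 59 member promoters. The same letters were found in 32.5% of 24527 promoters of all genes in the table. The core of the abscisic acid response element, ACGTGNC on either strand, was found in 6 of 59 members and in 10.0% of all promoters. Such a match is a description of the letters in this window, not a bound site.

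Per length, the family spanned over 2 orders of magnitude in CPM per kb of exon. At 150 mM the highest members were WRKY65 (91.0 ± 12.3 CPM per kb, SD over 8 libraries of 3 genotypes), WRKY6 (80.1 ± 12.4), WRKY39 (72.7 ± 6.30) and WRKY17 (69.4 ± 8.87). At 0 mM WRKY33 was first (96.7 ± 15.5 CPM per kb, SD over 9 libraries), followed by WRKY65 (87.8 ± 15.1), WRKY17 (66.8 ± 10.3), WRKY39 (65.4 ± 5.34) and WRKY11 (60.9 ± 11.41). WRKY33 and WRKY65 at 0 mM, and the neighbours WRKY17, WRKY39 and WRKY11, differed by less than these SDs. WRKY33, a group I regulator of camalexin synthesis and of defence against necrotrophic fungi, was sixth at 150 mM with 59.5 ± 11.44 CPM per kb. WRKY6, a group IIb repressor of the phosphate exporter gene PHO1, was second at 150 mM and seventh at 0 mM, with 50.6 ± 8.16 CPM per kb there. At the other end, WRKY50 and WRKY55 had means under 1 CPM per kb in both conditions. WRKY12 had 0 CPM in all 17 libraries and was the only member below the filter on low counts, which leaves 58 members tested.

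**Figure D1:**
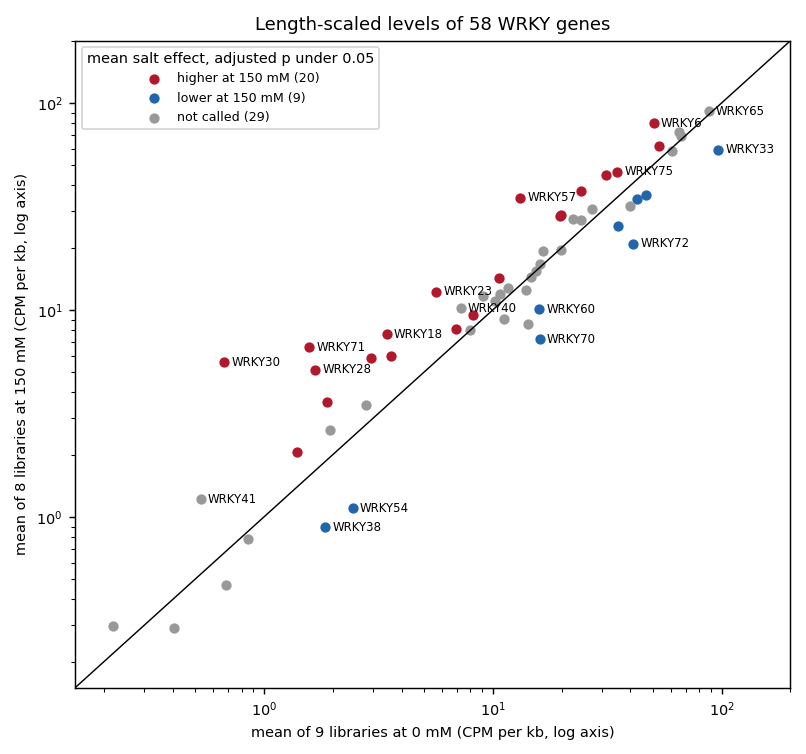
Mean length-scaled level (CPM per kb of exon) of 58 WRKY genes over 8 libraries at 150 mM (vertical, log axis) and 9 libraries at 0 mM (horizontal, log axis), coloured by the call for the mean salt effect; the diagonal marks equal levels. The 20 members called higher lie above the diagonal and the 9 called lower, WRKY33 and WRKY72 among the more abundant of them, lie below it.

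Salt moved 29 of the 58 tested WRKY genes, 20 up and 9 down, when the effect was averaged over C4, B2 and WT with equal weight (edgeR's quasi-likelihood test, Benjamini-Hochberg adjusted over 21367 genes, threshold 0.05). Of the tested members 34.5% were called higher and 15.5% lower, against 21.5% and 20.5% of all tested genes (42.1% in either direction). The median log2 fold change (150 over 0 mM) was 0.16 over the 58 members and -0.01 over all tested genes. All 20 that rose had a positive fold change in each genotype, and all 9 that fell had a negative one. These members were called on the average of the same genotype effects, which favours a shared sign. The shared sign is therefore not a separate test of agreement between genotypes, and no share of all called genes is given for comparison. Libraries at 150 mM lay wholly above those at 0 mM for 7 members (background 5.32%) and wholly below for 1 (background 3.89%). Root hair markers summed to 46.7 to 97.3 CPM at 150 mM and 103.0 to 184.1 CPM at 0 mM, and stele markers to 124.7 to 153.2 CPM and 158.6 to 176.7 CPM, so both lists moved with salt beside the shoot list given above. In whole roots fewer cells of a type and less RNA per cell cannot be told apart, and the part of these markers in the WRKY results was not tested.

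Group IIc had 8 of the 20 members that rose, and no test compared the structural groups. Of its 13 tested members, 8 were called higher, 0 were called lower and 5 were not called, with a median log2 fold change of 0.54. In group I, 6 of 12 rose and 1 fell. Groups IIa, IId and IIe each had 1 member higher, with 1 lower in IIa and IIe and 0 in IId, of 3, 6 and 8 tested. Group IIb had 1 higher and 3 lower of 8, and group III 2 higher and 3 lower of 8.

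**Figure D2:**
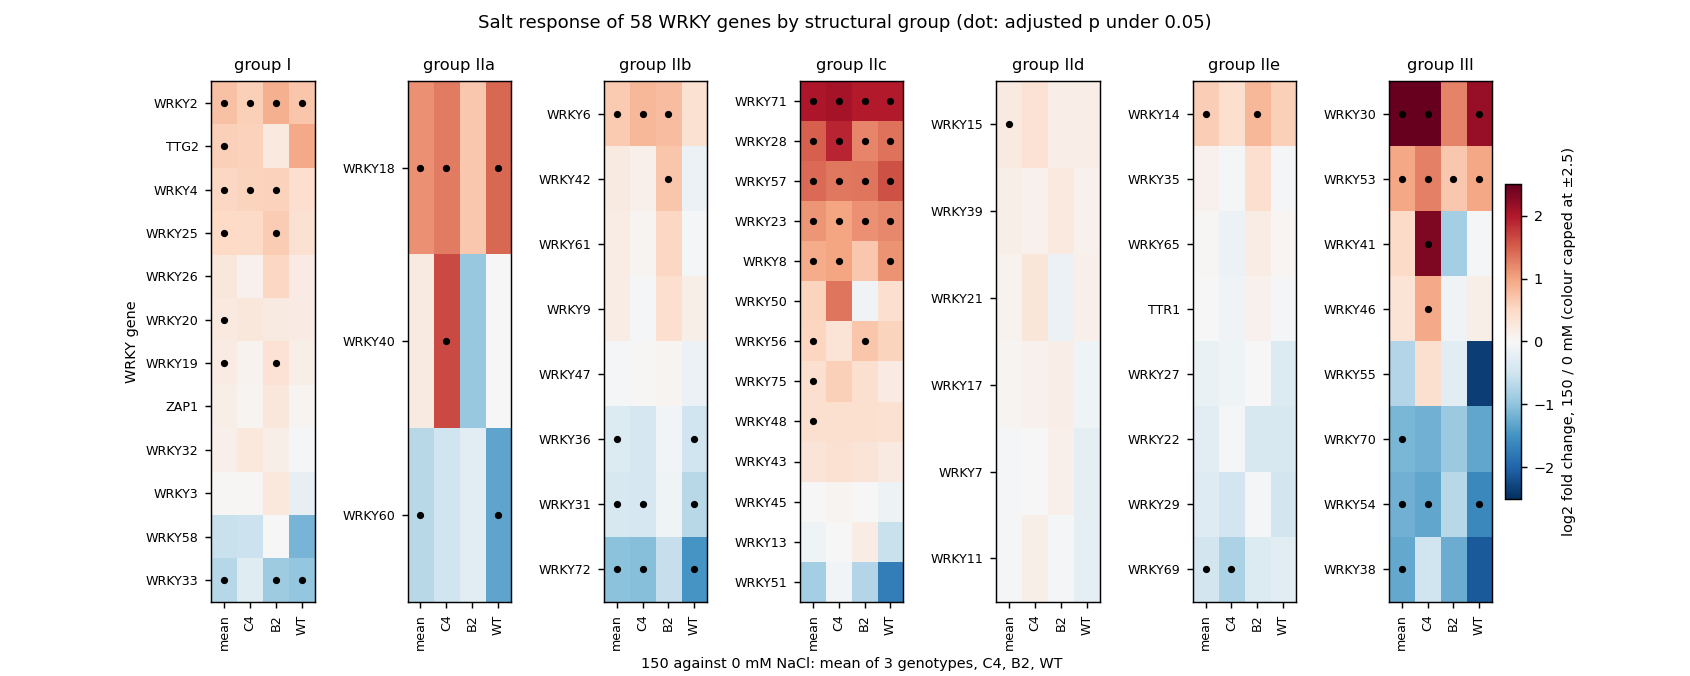
Log2 fold change of 150 over 0 mM NaCl for the 58 tested WRKY genes (rows, by structural group), as the mean of 3 genotypes and within C4, B2 and WT (columns); dots mark adjusted p under 0.05 and the colour is capped at 2.5 either way. Group IIc has 8 dots in the mean column, all of them red, and 0 blue ones.

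WRKY71 (AT1G29860), a group IIc gene that promotes shoot branching, had 6.54, 13.8 and 5.95 CPM in C4 at 150 mM, against 1.66, 2.82 and 1.75 CPM in C4 at 0 mM. It had 4.85, 8.37 and 8.09 CPM in B2 at 150 mM, against 1.52, 2.92 and 0.910 CPM in B2 at 0 mM. It had 5.11 and 6.32 CPM in WT at 150 mM, against 1.82, 1.01 and 1.497 CPM in WT at 0 mM. All 8 libraries at 150 mM lay above all 9 at 0 mM. The mean log2 fold change was 2.02 ± 0.25 (SE, adjusted p = 1.98e-05), a 4.05-fold increase, and the gene was called in each genotype.

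WRKY28 and WRKY8, close relatives of WRKY71 in group IIc, rose with it. WRKY28 (AT4G18170), which binds the promoter of the salicylate synthesis gene ICS1, had a lowest, median and highest level of 4.68, 6.25 and 15.0 CPM at 150 mM, against 1.15, 2.47 and 3.51 CPM at 0 mM. Its mean log2 fold change was 1.498 ± 0.21 (SE, adjusted p = 5.81e-05). WRKY8 (AT5G46350), which acts in salt tolerance and is bound by the protein VQ9, had 3.74, 4.74 and 6.94 CPM at 150 mM, against 1.59, 2.46 and 3.63 CPM at 0 mM. Its mean log2 fold change was 0.93 ± 0.14 (SE, adjusted p = 9.53e-05). In neither gene did the 150 mM and 0 mM libraries overlap.

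WRKY57 (AT1G69310), linked to drought tolerance and to jasmonate-induced senescence, was the most abundant member whose libraries did not overlap. It had 41.9, 63.9 and 103.8 CPM (lowest, median and highest) at 150 mM, against 21.0, 26.0 and 36.0 CPM at 0 mM. Its mean log2 fold change was 1.42 ± 0.18 (SE, adjusted p = 3.64e-05), with 1.31 in C4, 1.34 in B2 and 1.60 in WT. WRKY23 (AT2G47260), an auxin-responsive gene of root development, had 18.9, 23.9 and 28.9 CPM at 150 mM, against 7.07, 12.0 and 15.0 CPM at 0 mM. Its mean log2 fold change was 1.11 ± 0.15 (SE, adjusted p = 4.84e-05). The other IIc members that rose changed less: WRKY75, which acts in phosphate uptake and restrains root hair formation, by 0.40 ± 0.12 (adjusted p = 0.0143), WRKY56 by 0.54 and WRKY48 by 0.40 on the log2 scale. WRKY48 was called in 12 of 23 alternative settings, while WRKY75 and WRKY56 were called in all 23.

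In group III, WRKY53 and WRKY30 rose while WRKY54, WRKY70 and WRKY38 fell. WRKY53 (AT4G23810), an activator of leaf senescence, had 6.52, 8.55 and 11.9 CPM (lowest, median and highest) at 150 mM, against 3.17, 4.51 and 5.90 CPM at 0 mM, with no overlap. Its mean log2 fold change was 0.97 ± 0.13 (SE, adjusted p = 3.55e-05). WRKY54 (AT2G40750) and WRKY70 (AT3G56400) are paired regulators of salicylate responses and act with brassinosteroid signalling. WRKY54 had 1.06, 1.53 and 2.11 CPM at 150 mM, against 2.60, 2.98 and 5.26 CPM at 0 mM, and was the single member whose 150 mM libraries all lay below those at 0 mM. WRKY70 had 5.16, 10.2 and 16.8 CPM at 150 mM, against 14.9, 24.1 and 37.4 CPM at 0 mM, so the groups overlapped. The mean log2 fold changes were -1.20 ± 0.19 (SE, adjusted p = 0.000158) for WRKY54 and -1.14 ± 0.24 (SE, adjusted p = 0.00167) for WRKY70. In WT alone WRKY70 had -1.29 (adjusted p = 0.0662), which became -2.36 (adjusted p = 0.00428) without the libraries that stood apart and -0.68 (adjusted p = 0.416) without WT 150 mM replicate 1. WRKY38, a repressor of basal defence, changed by -1.28 ± 0.44 on the log2 scale (SE, adjusted p = 0.0315) and kept its call in 16 of 23 alternatives.

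**Figure D3:**
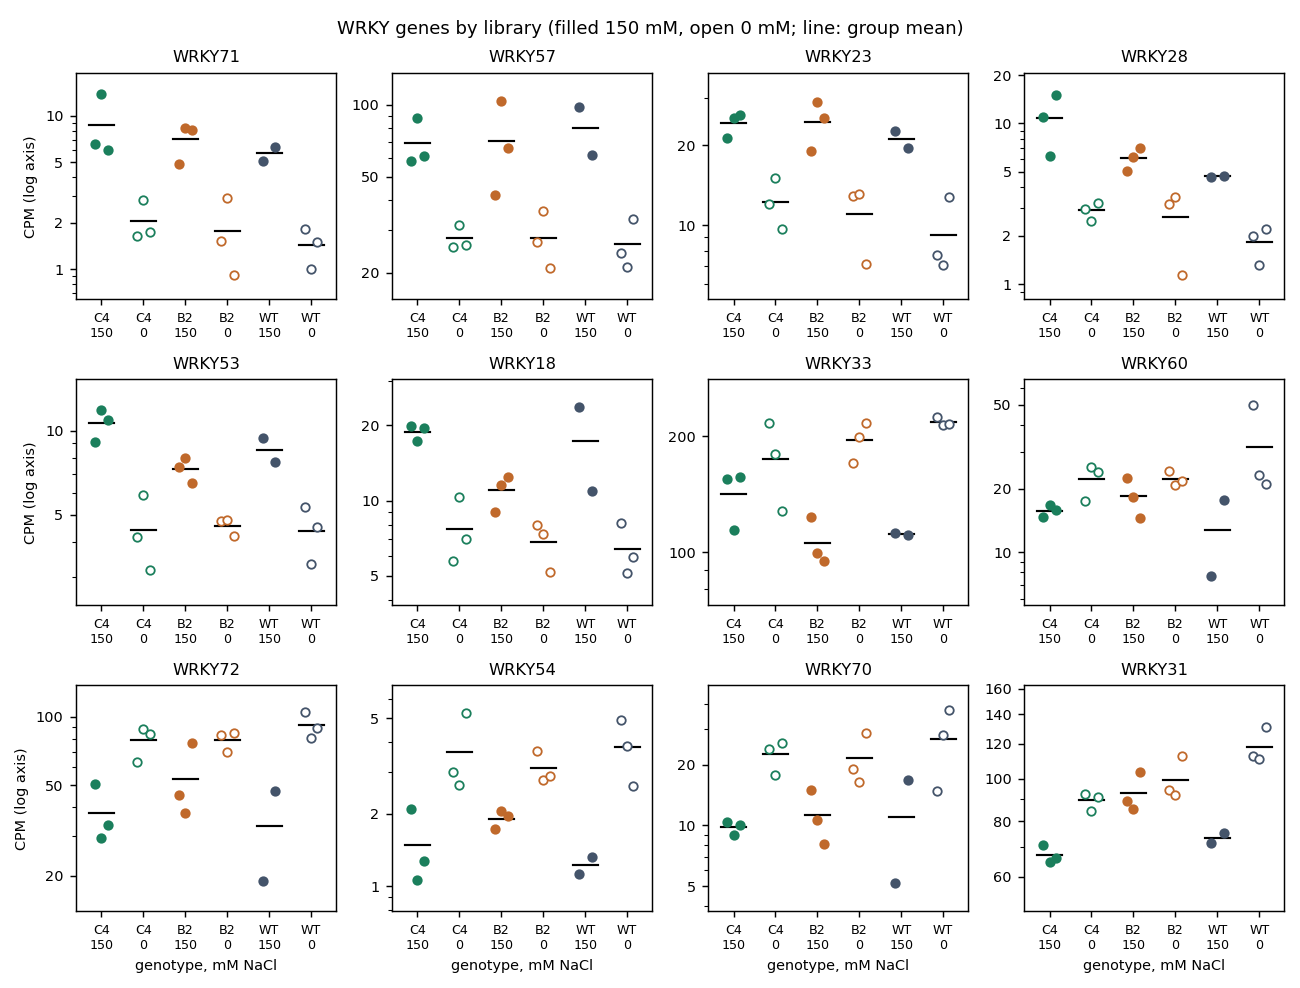
CPM (log axis) of 12 WRKY genes in each library of C4, B2 and WT at 150 mM (filled) and 0 mM NaCl (open), with the group mean as a line. WRKY71, WRKY57, WRKY23, WRKY28 and WRKY53 have every filled point above every open one, and WRKY54 has every filled point below.

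The 3 members of group IIa interact with each other and modulate defence and abscisic acid signalling, and they did not move together. WRKY18 (AT4G31800) had 19.8, 17.4 and 19.5 CPM in C4 at 150 mM, against 5.76, 10.3 and 7.01 CPM in C4 at 0 mM. It had 9.002, 11.6 and 12.4 CPM in B2 at 150 mM, against 8.02, 7.35 and 5.19 CPM in B2 at 0 mM, and 23.6 and 10.9 CPM in WT at 150 mM, against 8.15, 5.15 and 5.95 CPM in WT at 0 mM. Libraries of the 2 salt conditions did not overlap within any genotype, and the mean log2 fold change was 1.14 ± 0.16 (SE, adjusted p = 7.08e-05). In WT the value was 1.43 with all libraries, 1.89 without those that stood apart, and 0.76 without WT 150 mM replicate 1, where it was not called (adjusted p = 0.199).

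WRKY60 (AT2G25000) fell, with a mean log2 fold change of -0.69 ± 0.19 (SE, adjusted p = 0.01). Its levels were 7.66 and 17.7 CPM in WT at 150 mM, against 50.1, 23.1 and 21.0 CPM in WT at 0 mM. In both lines the change was -0.51 (C4) and -0.27 (B2) and was not called. The fall in WT was -1.31 with all libraries and -2.02 without the libraries whose markers went against their labels. It was -0.83 and lost its call without WT 150 mM replicate 1. The call was also lost without WT 0 mM replicate 1, the library at 50.1 CPM, and when only the groups compared were fitted. WRKY40 (AT1G80840) was not called in the mean effect (0.23 ± 0.25, adjusted p = 0.498), and its genotypes differed in sign, as given with the line comparisons.

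In group I, WRKY33 fell while its relative WRKY25 rose. Both have been tied to salt tolerance in Arabidopsis. WRKY33 (AT2G38470) had 154.4, 114.3 and 156.5 CPM in C4 at 150 mM, against 216.4, 179.8 and 128.1 CPM in C4 at 0 mM, where the groups overlapped. It had 123.3, 99.4 and 94.8 CPM in B2 at 150 mM, against 170.7, 199.5 and 216.9 CPM in B2 at 0 mM. It had 111.8 and 110.7 CPM in WT at 150 mM, against 224.4, 213.8 and 215.8 CPM in WT at 0 mM, so neither B2 nor WT overlapped between conditions. The mean log2 fold change was -0.72 ± 0.11 (SE, adjusted p = 7.12e-05), and B2 (-0.89) and WT (-0.97) were called while C4 (-0.30, adjusted p = 0.286) was not.

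WRKY25 had 61.0, 80.0 and 94.9 CPM (lowest, median and highest) at 150 mM, against 46.8, 54.2 and 65.8 CPM at 0 mM, with a mean log2 fold change of 0.50 ± 0.10 (SE, adjusted p = 0.000969). WRKY2, which acts in the control of germination by abscisic acid, rose by 0.72 ± 0.11 (adjusted p = 7.23e-05) without overlap between conditions. WRKY4, which acts in defence with WRKY3, rose by 0.51 ± 0.10 (adjusted p = 0.000509). TTG2 (WRKY44), a gene of trichome and seed coat development, rose by 0.59 ± 0.19 (adjusted p = 0.0218) and was called in 22 of 23 alternatives. The group I members WRKY20 and WRKY19 and the IId member WRKY15 rose by 0.24, 0.20 and 0.23, and were called in 21, 13 and 22 of 23 alternatives. WRKY14, in group IIe, rose by 0.61 ± 0.12 (adjusted p = 0.000934).

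Group IIb moved both ways. WRKY6 (AT1G62300) had 148.3, 193.5 and 225.7 CPM (lowest, median and highest) at 150 mM, against 94.2, 120.3 and 156.8 CPM at 0 mM. Its mean log2 fold change was 0.66 ± 0.10 (SE, adjusted p = 0.000128). WRKY72 (AT5G15130), a gene of basal defence, had 50.5, 29.4 and 33.6 CPM in C4 at 150 mM, against 63.6, 88.9 and 84.0 CPM in C4 at 0 mM. It had 45.4, 37.9 and 77.1 CPM in B2 at 150 mM, against 83.0, 70.0 and 85.2 CPM in B2 at 0 mM, and 19.0 and 47.4 CPM in WT at 150 mM, against 105.1, 80.7 and 89.8 CPM in WT at 0 mM. Its conditions overlapped in B2 and not in C4 or WT, and the mean log2 fold change was -1.03 ± 0.19 (SE, adjusted p = 0.000634). The fall in WT was -1.47 with all libraries, -2.26 without those that stood apart and -0.96, not called, without WT 150 mM replicate 1. WRKY31 and WRKY36 fell by 0.40 ± 0.07 (adjusted p = 0.000218) and 0.33 ± 0.09 (adjusted p = 0.00645) on the log2 scale. WRKY9, which has been placed upstream of root suberin under salt, had 29.5, 38.7 and 54.3 CPM at 150 mM, against 30.2, 37.1 and 40.5 CPM at 0 mM, and was not called (0.18 ± 0.11, adjusted p = 0.207). WRKY69, in group IIe, fell by 0.46 ± 0.08 (adjusted p = 0.000411).

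The 29 members that were not called ran from -0.84 (WRKY51, adjusted p = 0.0692) to 0.55 (WRKY50, adjusted p = 0.353) on the log2 scale. They include WRKY11 and WRKY17, group IId repressors of basal defence that were among the most abundant members, with log2 fold changes of -0.04 ± 0.10 and 0.06 ± 0.09. WRKY22 and WRKY29, which act downstream of immune MAP kinases, had -0.27 ± 0.18 and -0.33 ± 0.17. By promoter letters, 9 of the 20 members that rose, 3 of the 9 that fell and 11 of the 29 not called held a W-box in the 300-base window. WRKY30 and WRKY33, with the 3 W-boxes each shown above, moved in opposite directions.

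Within C4, 14 of 58 members were called higher and 4 lower at 150 mM than at 0 mM, against 6.69% and 5.44% of all tested genes. Within B2, 13 were called higher and 1 lower, against 9.61% and 6.63% of all genes. Within WT, 9 were called higher and 6 lower, against 9.29% and 7.35% of all genes. In all 3 genotypes 6 members rose, namely WRKY71, WRKY57, WRKY23, WRKY28, WRKY53 and WRKY2, while 3.94% of all tested genes were called higher in each. Several of these calls were not stable over the 23 alternatives. That of WRKY53 in B2 was lost in 13, those of WRKY2 in 6 (WT) and 7 (C4), and those of WRKY28 in 5 (WT) and 6 (B2). For WRKY71 the WT call was lost in 1, and the C4 and B2 calls in 0. Called lower in all 3 were 0 members and 2.38% of all tested genes, and WRKY33, WRKY54, WRKY31 and WRKY72 were called lower in 2. The single member called lower in B2 was WRKY33. Without overlap between the conditions lay 21 members higher and 9 lower in C4 (18.2% and 16.5% of all genes), 17 and 4 in B2 (18.8% and 15.7%) and 13 and 10 in WT (22.9% and 21.4%). The called counts depended on single libraries: WT had 1 higher (WRKY8) and 0 lower without WT 150 mM replicate 1, and B2 had 5 higher (WRKY2, WRKY6, WRKY23, WRKY42 and WRKY71) and 1 lower without B2 0 mM replicate 3. Without B2 150 mM replicate 2, B2 had 2 higher (WRKY71 and WRKY2) and 1 lower. Without C4 0 mM replicate 3, C4 had 6 higher and 1 lower. The shares of all tested genes called with libraries left out are not given here, so such falls cannot be read as particular to the members. Without both libraries that stood apart, the counts were 15 higher and 6 lower in C4, 5 and 1 in B2, 6 and 9 in WT, and 18 and 11 in the mean effect. In that setting WRKY28 (adjusted p = 0.106), WRKY53 (0.151) and WRKY57 (0.0553) lost their B2 calls, as did WRKY4, WRKY14, WRKY19, WRKY25 and WRKY56. WRKY2 (adjusted p = 0.0607), WRKY8 and WRKY30 lost their WT calls.

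WRKY30, a group III gene responsive to reactive oxygen species, had the largest mean log2 fold change with salt among the 58 tested members (2.75 ± 0.30, SE, adjusted p = 8.6e-06), and its value within a genotype was highest in C4. It had 14.6, 8.85 and 17.6 CPM in C4 at 150 mM, against 0.360, 0.588 and 0.482 CPM in C4 at 0 mM. It had 2.77, 4.81 and 1.25 CPM in B2 at 150 mM, against 2.31, 0.611 and 0.811 CPM in B2 at 0 mM, with overlap. It had 3.35 and 4.57 CPM in WT at 150 mM, against 0.711, 0.944 and 0.958 CPM in WT at 0 mM. The fold change was 28.5 in C4 (log2 4.83 ± 0.56, adjusted p = 0.000374), 2.37 in B2 (log2 1.24 ± 0.48, adjusted p = 0.0893) and 4.54 in WT (log2 2.18 ± 0.53, adjusted p = 0.0126). Without the libraries that stood apart, the WT value was 1.956 (adjusted p = 0.051) and the B2 value 1.00 (adjusted p = 0.271) on the log2 scale. The C4 call held in every alternative, from 4.61 to 5.07.

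WRKY40, WRKY41 and WRKY46 were called higher under salt in C4 and in neither B2 nor WT. WRKY41 is outside the set named by rule and was chosen after its values were seen. WRKY40 had 25.9, 11.9 and 33.4 CPM in C4 at 150 mM, against 9.71, 5.61 and 7.40 CPM in C4 at 0 mM. It had 7.17, 3.52 and 8.61 CPM in B2 at 150 mM, against 14.1, 14.9 and 8.51 CPM in B2 at 0 mM, and 12.1 and 5.32 CPM in WT at 150 mM, against 6.98, 7.62 and 11.8 CPM in WT at 0 mM. C4 did not overlap between conditions and B2 and WT did. The log2 fold change was 1.65 ± 0.43 (SE, adjusted p = 0.0222) in C4, -0.96 ± 0.42 (adjusted p = 0.13) in B2 and -0.01 ± 0.47 (adjusted p = 0.99) in WT. The WT value depended on single libraries, with 0.475 without those that stood apart and -0.73 without WT 150 mM replicate 1, neither of them called, and the B2 value was -1.18 (adjusted p = 0.0984) without those that stood apart.

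WRKY46 (AT2G46400), a gene of drought and salt responses and lateral root growth, had 4.35, 4.95 and 6.16 CPM in C4 at 150 mM, against 2.78, 3.11 and 2.16 CPM in C4 at 0 mM. It had 2.30, 2.68 and 1.64 CPM in B2 at 150 mM, against 2.22, 1.83 and 2.99 CPM in B2 at 0 mM, and 3.72 and 2.696 CPM in WT at 150 mM, against 2.40, 3.37 and 2.90 CPM in WT at 0 mM. Its log2 fold change was 0.94 ± 0.26 (SE, adjusted p = 0.026) in C4, -0.09 (adjusted p = 0.84) in B2 and 0.15 (adjusted p = 0.768) in WT. The mean effect of WRKY46 was 0.33 and was not called (edgeR adjusted p = 0.092). Without the libraries that stood apart, the values were 0.48 for the mean, 0.11 in B2 and 0.38 in WT. WRKY41 (AT4G11070), which activates the seed dormancy regulator gene ABI3, had 3.33, 0.739 and 5.18 CPM in C4 at 150 mM, against 0.447, 0.610 and 0.784 CPM in C4 at 0 mM. One C4 library at 150 mM lay within the 0 mM range, and the log2 fold change was 2.33 ± 0.67 (SE, adjusted p = 0.034), or 1.72 without C4 150 mM replicate 3. The C4 calls of WRKY40 and WRKY46 were each lost in 4 of the 23 alternatives and that of WRKY41 in 5, all of which left out a C4 library.

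**Figure D4:**
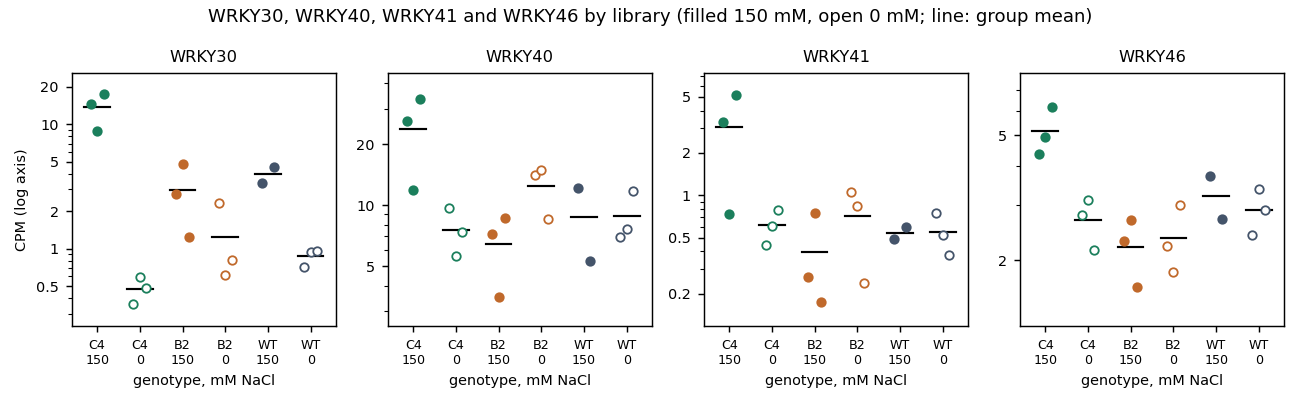
CPM (log axis) of WRKY30, WRKY40, WRKY41 and WRKY46 in each library of C4, B2 and WT at 150 mM (filled) and 0 mM NaCl (open), with the group mean as a line. The C4 libraries at 150 mM reach 17.6, 33.4, 5.18 and 6.16 CPM, the highest value of each panel, while C4 150 mM replicate 2 is the lowest of the 3 C4 libraries for WRKY30, WRKY40 and WRKY41.

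The comparisons between genotypes and between their salt responses called 0 of 58 members by edgeR after adjustment, and 0 of 21367 genes, a background of 0%. ANNAT3 was not called either, although at 150 mM it was at 0.458 to 1.11 CPM in B2 and 59.3 to 161.8 CPM in C4. The fit also holds the 2 libraries that go against their labels. A count of 0 therefore does not show that levels were equal between genotypes. At an unadjusted p under 0.05, C4 against B2 at 150 mM had 14 of 58 members (6.57% of all genes), C4 against WT at 150 mM had 5 (6.44%) and B2 against WT at 150 mM had 4 (10.1%). At 0 mM, C4 against WT had 8 members (4.06% of all genes), B2 against WT had 3 (1.47%) and C4 against B2 had 2 (1.27%). For the salt responses, C4 minus B2 had 8 (3.63%), C4 minus WT 5 (3.63%) and B2 minus WT 4 (4.53%).

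At 150 mM, WRKY30, WRKY40, WRKY41 and WRKY46 had positive differences between C4 and B2 that failed the adjustment with edgeR. The intervals given are for single genes and, unlike the adjusted p, take no account of the number of genes tested. WRKY30 averaged 13.7 ± 4.46 CPM in C4 and 2.94 ± 1.79 CPM in B2 (SD, n = 3 each), a log2 difference of 2.22 with a 95% interval of 1.27 to 3.17 and an edgeR adjusted p of 0.343. WRKY40 averaged 23.7 ± 10.9 CPM in C4 and 6.43 ± 2.63 CPM in B2, a log2 difference of 1.88 (1.04 to 2.73, edgeR adjusted p = 0.377). WRKY46 averaged 5.15 ± 0.920 CPM in C4 and 2.21 ± 0.525 CPM in B2, a log2 difference of 1.22 (0.71 to 1.73, edgeR adjusted p = 0.343). All 3 C4 libraries lay above all 3 B2 libraries for these genes, as they did for 5 members in all (5.64% of all genes), and 7 members lay wholly below (7.74% of all genes). For WRKY41 the averages were 3.08 ± 2.23 CPM in C4 and 0.394 ± 0.308 CPM in B2, a log2 difference of 2.97 (1.60 to 4.33, edgeR adjusted p = 0.377). DESeq2 called all 4 higher in C4 (adjusted p = 0.00282 for WRKY30, 0.00283 for WRKY40, 0.00667 for WRKY41 and 0.00525 for WRKY46) and WRKY31 lower (-0.46, adjusted p = 0.0229), which makes 5 of 58 members, against 0.426% of all genes.

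For the salt response itself, C4 minus B2 was 3.59 for WRKY30 (95% interval 2.21 to 4.97, edgeR adjusted p = 0.786) and 2.61 for WRKY40 (1.43 to 3.78, edgeR adjusted p = 0.961). DESeq2 called both (adjusted p = 0.000629 and 0.00749), the only 2 members it called there, against 0.0749% of all genes. DESeq2 was run on all 17 libraries, including B2 0 mM replicate 3, and not without that library. With that library left out, edgeR called 0 members in this comparison. C4 minus WT was 2.65 for WRKY30 (1.18 to 4.12) and 1.66 for WRKY40 (0.41 to 2.91), each with an edgeR adjusted p of 1 and no call by DESeq2. B2 minus WT had its lowest unadjusted p in WRKY31 (0.58, interval 0.26 to 0.91) and WRKY42 (0.85, 0.33 to 1.37), which edgeR did not call after adjustment.

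WRKY42 (AT4G04450), a group IIb repressor of PHO1, was chosen after its values were seen. It had 10.4, 11.8 and 11.41 CPM in B2 at 150 mM, against 6.01, 7.40 and 7.27 CPM in B2 at 0 mM, and rose in B2 (log2 0.70 ± 0.18, adjusted p = 0.0159). It had 8.08, 7.04 and 5.97 CPM in C4 and 5.33 and 7.13 CPM in WT at 150 mM. B2 lay above WT at 150 mM by 0.85 on the log2 scale (95% interval 0.45 to 1.25, edgeR adjusted p = 0.438), and DESeq2 called that difference (adjusted p = 0.0413), as the single member called there, against 0.126% of all genes. At 0 mM no WRKY gene was called between genotypes by either tool. The lowest unadjusted p there was that of WRKY31, which had 92.5, 84.7 and 90.9 CPM in C4, against 112.7, 110.7 and 130.8 CPM in WT (log2 -0.40, 95% interval -0.62 to -0.19, edgeR adjusted p = 1).

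Upstream of several WRKY proteins stands a MAP kinase cascade, and none of the 10 listed kinase genes rose with salt while 5 fell (median log2 fold change -0.24, against -0.01 for all tested genes). For this list and the next, the shares of all tested genes called were 21.5% higher and 20.5% lower. MPK3, which phosphorylates WRKY33 in defence, had 44.4, 55.1 and 65.4 CPM (lowest, median and highest) at 150 mM, against 71.98, 74.3 and 96.2 CPM at 0 mM, and changed by -0.50 ± 0.08 on the log2 scale (edgeR adjusted p = 0.000134). MPK11, MKK2, MKK4 and MKK1 changed by -1.14, -0.41, -0.34 and -0.34 on the log2 scale, and all 4 passed the test. MPK6, which acts beside MPK3, was not called (0.09, adjusted p = 0.272). Of 8 tested VQ-motif genes, whose proteins bind WRKY factors, 1 rose and 3 fell (median -0.03). SIB1, a partner of WRKY33, fell by 1.23 on the log2 scale, VQ10 fell by 1.53 and JAV1, a repressor of jasmonate responses, fell by 0.33. VQ9, whose protein binds WRKY8, rose by 0.26 (edgeR adjusted p = 0.024), and SIB2 was not called (0.33, adjusted p = 0.14).

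Of 18 tested genes reported as WRKY targets, 6 rose and 6 fell with salt (median log2 fold change 0.07), against 21.5% and 20.5% of all tested genes. RD29A, a stress gene bound by WRKY57, had 879.2, 2000.0 and 3177 CPM (lowest, median and highest) at 150 mM, against 27.5, 70.7 and 117.3 CPM at 0 mM, and rose by 4.81 ± 0.36 on the log2 scale (edgeR adjusted p = 1.33e-06). NCED3, the abscisic acid synthesis gene also bound by WRKY57, rose by 2.71 ± 0.29 (adjusted p = 1.45e-05). ABI5, an abscisic acid response factor repressed by WRKY40, rose by 2.59 ± 0.20 (adjusted p = 1.23e-06). FRK1, a flagellin-induced kinase gene downstream of WRKY22 and WRKY29, rose by 1.62 ± 0.16, and ACS2, an ethylene synthesis gene activated by WRKY33, by 1.16 ± 0.16. PHO1, the phosphate exporter gene repressed by WRKY6 and WRKY42, had 217.5, 263.6 and 360.7 CPM at 150 mM, against 192.1, 220.6 and 316.3 CPM at 0 mM, and rose by 0.30 ± 0.09 (adjusted p = 0.019). PHO1 and the 6 genes that fell are outside the naming rule and were added after their values were seen. CBP60G, a regulator of salicylate synthesis, had 2.81, 12.9 and 29.6 CPM at 150 mM, against 53.03, 60.5 and 83.5 CPM at 0 mM, and fell by 2.21 ± 0.35 (adjusted p = 0.000272). PROPEP3, PROPEP2 and EDS1 fell by 1.62, 1.24 and 0.26 on the log2 scale. PAD3, the camalexin synthesis gene activated by WRKY33, had 4.75, 20.5 and 84.2 CPM at 150 mM, against 39.5, 61.1 and 127.4 CPM at 0 mM, and fell by 1.64 ± 0.38 (adjusted p = 0.00371). ALMT1, the malate channel gene repressed by WRKY46, fell by 0.99 ± 0.19 (adjusted p = 0.000988). ACS2 and PAD3, both reported as activated by WRKY33, changed in opposite directions, and the part of WRKY33 in either change was not tested.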

How the data were processed

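The authors deposited raw read counts, summed by gene over Araport11 exons by featureCounts 2.0.3 with strand setting 2 and a mapping quality of at least 10, per the file headers. Reads of a pair were counted singly and multi-mapping reads were not counted, so near-identical copies can be too low. Per the submitters' processing notes, STAR 2.7.11a, fastp and FastQC 0.12.1 were among the tools and TAIR10 was the build. The first and second WT columns at 0 mM were identical in 24515 of 24532 genes, differed by less than the sampling noise (mean chi-square per gene 0.0523, at least 8.65 in other pairs) and were counted as 1 sample, the first. The 17 genes that differ, 0 of them members, were left out of tests.

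The 17 libraries went into 1 fit of edgeR 4.0.16 (R 4.3.3; TMM scaling, filterByExpr, robust quasi-likelihood, 1 mean for each group, two-sided, Benjamini-Hochberg over 21367 genes, threshold 0.05). The labels give no batch or pairing, so no covariate was used. The procedure was run on simulated counts with known changes, drawn with the spread of this same fit and with correct labels. Such counts cannot speak to the 2 libraries that go against their labels or to dependence on single libraries. CPM use TMM-scaled library sizes, SEs are the log2 fold change over the square root of F, and 95% intervals are 1.96 SE. With few libraries this multiplier makes the intervals somewhat narrow, and they are not adjusted for the number of genes. Libraries held 54233853 to 91527683 counts, and the SEs cover counting error and the spread between libraries. Gene spans of 24464 of 24528 matched genes equal those of the RefSeq TAIR10.1 annotation, including all 59 members, so promoters were read from that genome. Named with values in the text are members called in the mean salt effect or between genotypes, up to 12 per direction, with 12 that are always given (WRKY18, WRKY40, WRKY60, WRKY25, WRKY33, WRKY8, WRKY46, WRKY6, WRKY75, WRKY9, WRKY70, TTG2), and up to 5 genes per list. Values are also given for members outside this rule. They include WRKY11, WRKY15, WRKY17, WRKY19, WRKY20, WRKY22, WRKY29, WRKY41, WRKY42, WRKY48, WRKY50, WRKY51 and WRKY56. Among the kinase genes MPK6 is outside it too. The members and lists were chosen with earlier results of these data known. Alternatives were DESeq2 1.42.0 as the test, its size factors in edgeR, no filter, only the groups compared, the near-identical column kept, the 2 libraries that go against their labels left out, and each library left out in turn.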

Additional observations from a re-analysis of the deposited data

How the results depend on the processing

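The mean salt effect gave 27 to 31 called members when each library was left out in turn, and 29 with all libraries. Within genotypes the ranges were 7 to 20 called members in C4 (18 with all libraries), 3 to 19 in B2 (14) and 1 to 17 in WT (15). The low values came without C4 0 mM replicates 1 (11) or 3 (7) or C4 150 mM replicates 2 (10) or 3 (8), without B2 0 mM replicates 1 (7) or 3 (6) or B2 150 mM replicates 2 (3) or 3 (5), and without WT 150 mM replicate 1 (1). A group left with 1 library is assumed to vary like the others. The share of all tested genes called in each of these settings is not given here. A loss of calls among the members therefore cannot be told apart from a loss over all genes. Without the 2 libraries that go against their labels, B2 had 6. When the fit held the compared groups alone, WT had 5 called members. For comparisons between genotypes, each 0 with edgeR, DESeq2 called 1 member in B2 against WT at 150 mM (0.126% of all genes). It called 5 in C4 against B2 at 150 mM (0.426%) and 2 in the salt response of C4 minus B2 (0.0749%). Leaving out a library gave 0 to 1 in B2 against WT at 150 mM (1 without WT 150 mM replicate 2, WRKY42) and 0 to 1 in C4 against B2 at 150 mM (1 without C4 150 mM replicate 2, WRKY41), and 0 to 0 in the other 7. No called value of a named member changed sign in any alternative run. No paired analysis was possible because the labels number libraries across the study and give no numbers shared between groups.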

Other observations

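Members differed in how much they varied between libraries of a group. The median biological coefficient of variation was 0.190 over the 58 tested members and 0.173 over all tested genes. It was highest for WRKY55 (0.898), WRKY38 (0.597), WRKY50 (0.561) and WRKY41 (0.537), which were among the members with the lowest levels, and lowest for TTR1 (0.105) and WRKY3 (0.109). The level summed over the 59 members was 2010 to 2569 CPM at 150 mM and 1983 to 2390 CPM at 0 mM, so the summed level overlapped between conditions while 29 members changed.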
